A study of Homo sapiens with 24 samples.

Results

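Gene expression after joint inhibition of PI3 kinase with mTOR and of MEK was compared with control cells in AGS, an established line derived from a human gastric adenocarcinoma. The comparison used 8 of the 24 libraries in the series: 4 control libraries and 4 libraries of cells given PI103 together with PD0325901, selected by their sample titles. PI103 inhibits class I PI3 kinases and mTOR, and PD0325901 inhibits the MAP kinase kinases MEK1 and MEK2. In the combination PI103 was present at 0.35 µM and PD0325901 at 0.0175 µM, which is 50% of the 0.7 µM and 0.035 µM given as single agents. RNA was taken 24 h after the inhibitors were added. All libraries came from the same line, with the genotype given as WT, so each result describes 1 line. The labels give no treatment for the control cells and do not say whether they received vehicle. Each group had 4 biological replicates, and the replicate number is also labelled as the batch. The treatment field of later replicates carries compound names with numbers counted upward, and for that reason groups were read from titles. The single-agent groups, 4 libraries of PI103 and 4 of PD0325901, are described only to place the response of the combination. The model was fitted over all 24 libraries, which include cells given oxozeaenol alone or PI103 with oxozeaenol. All of these libraries therefore entered the gene filter, the scaling and the shared estimate of spread behind each test.

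The RAS, RAF, MEK and ERK cascade passes growth factor signals to transcription factors of the ETS, AP-1 and EGR families, and it induces phosphatases and adaptors that restrain the cascade itself. PI3 kinase and AKT keep FOXO transcription factors out of the nucleus, and mTOR complex 1 promotes ribosome production, amino acid metabolism and translation of the transcription factor ATF4 while restraining lysosome biogenesis.

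The 8 libraries held between 48.2 M and 84.2 M reads assigned to genes. The first principal component separated the groups and carried 80.7% of the variance over the 8 libraries. Combination replicate 2 stood apart on it, with a score of 75.2 against 49.5 to 54.9 for the other 3 combination libraries. Several results that moved without that library are given with and without it, but not all are. Reads with no annotated feature made up 5.20% to 6.64% of tallied reads in control and 7.04% to 7.82% in the combination, so this share also differed between the groups without overlap, and its part in the results was not tested. Of 7 epithelial marker genes, 3 were called higher and 4 were not called. Their summed level was 6879, 6069, 5927 and 6760 counts-per-million (CPM) in control and 6703, 7489, 6350 and 5854 CPM in the combination. Of 8 leukocyte markers 3 could be tested, with summed levels of 1.59 to 1.94 CPM in control and 1.75 to 2.39 CPM in the combination, and PTPRC and CD3E held at most 7 counts in any library. Of 8 endothelial markers only VWF was tested, at 0.0486 to 0.0787 CPM in control and 0.141 to 0.302 CPM in the combination, and CLDN5 had 0 counts. Of 8 fibroblast markers 5 were tested, with summed levels of 61.1 to 83.4 CPM in control and 64.4 to 80.5 CPM in the combination. Of the 5 tested, 2 were called higher and 1 lower, with log2 changes from -1.10 to 4.28. COL1A2, DCN and THY1 had at most 1 count in a library. In bulk RNA, fewer cells of a type and less RNA per cell cannot be told apart.

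The combination changed most of the measured transcriptome. The lowest list medians were those of ATF4 targets and ERK-driven transcription factors, and the highest among lists with at least 7 tested members were those of apolipoprotein, complement and interferon-stimulated genes. Of 13947 genes tested, 9039 (64.8%) were called against control at an adjusted p under 0.05 in edgeR's quasi-likelihood test. They divided into 4486 genes called higher (32.2%) and 4553 called lower (32.6%). A change of at least 1 on the log2 scale was reached by 2863 called genes, of which 1832 were higher and 1031 were lower. Changes of at least 3 were reached by 239 higher and 116 lower genes. Small changes were common too, and 2891 of the called genes (32.0%) changed by less than 0.5. The direction was the same in all 4 batches for 8671 called genes (95.9%), and the control and combination values did not overlap for 7738. The balance of rises and falls depended on scaling: with library totals in place of TMM, 5391 genes were called higher and 3604 lower, and the median over all genes moved from 0.01 to 0.13. The call rate is the reference for every gene list that follows.

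**Figure D1:**
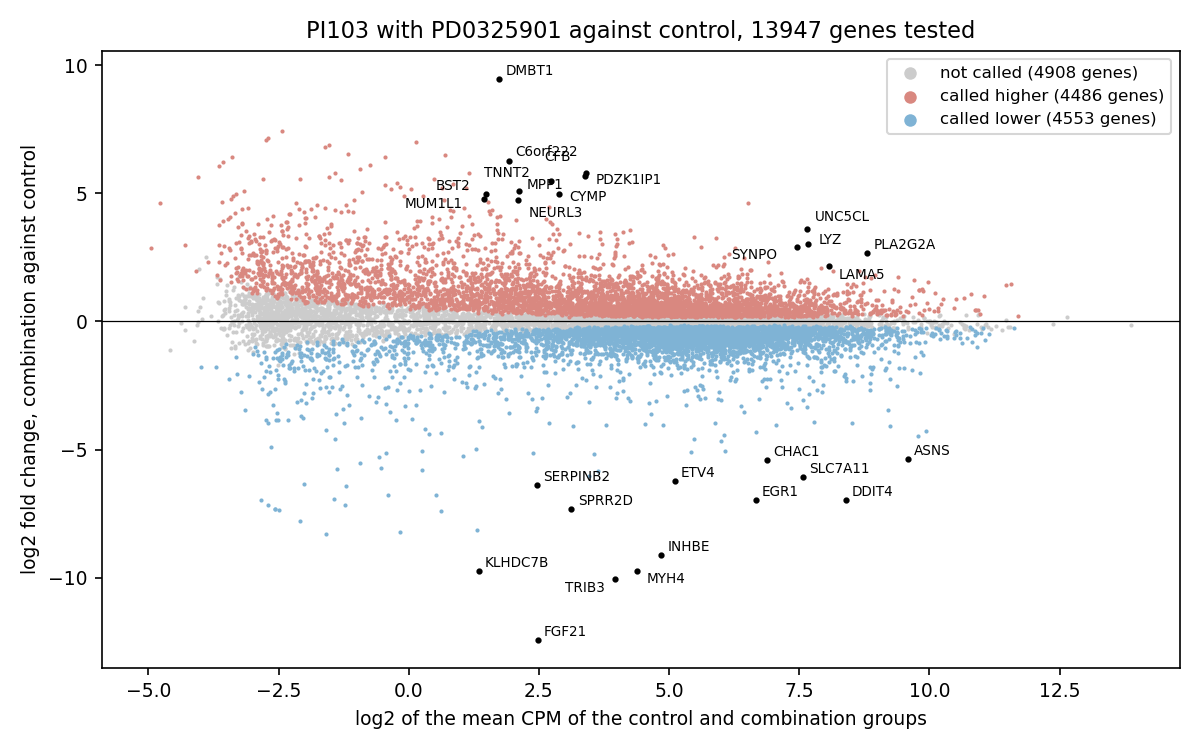
Log2 fold change of the combination against control (vertical axis) against the log2 of the mean CPM of both groups (horizontal axis), with 1 point for each of 13947 genes tested; red points were called higher (4486) and blue points lower (4553). The labelled genes are the largest changes and the largest changes among abundant genes, from DMBT1 at 9.47 to FGF21 at the bottom, which had no counts in the combination.

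Genes that report on ERK activity fell, and they were among the steepest falls in the data. DUSP6, the phosphatase that dephosphorylates ERK and is itself induced by it, measured 134, 129.6, 115 and 148 CPM in the control libraries and 4.63, 1.63, 4.31 and 5.01 CPM in the combination libraries (replicates 1 to 4 in order, here and for every gene). This fall (log2 fold change -5.08, SE 0.32, adjusted p = 6.65e-12) left all 4 combination libraries below every control library. An antisense gene lies opposite 40.5% of the exonic length of DUSP6, so with counting of unstated strandedness some reads could belong to it. Of 16 tested feedback phosphatases and inhibitors, 11 fell, 2 rose and 3 were not called, with a median change of -0.94. ERRFI1, which binds and inhibits EGFR family receptors, fell by 4.49 (adjusted p = 4.06e-13). SPRY4, an inhibitor of receptor signalling to RAS, fell by 4.00 from 44.0 ± 3.99 CPM in control to 2.74 ± 1.33 CPM in the combination (SD, n = 4 in each group, as for every such pair of means). The family was not uniform: DUSP10, a phosphatase that acts mainly on p38 and JNK, rose by 0.57, and SPRY2 rose by 0.34 with an adjusted p of 0.0386 that passed 0.05 by little. SPRY2 lost its call with no low-count filter (adjusted p = 0.069) and with any of 6 libraries left out, among them control replicate 4 (0.118).

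Most transcription factors and immediate-early genes downstream of ERK fell as well. Of 30 tested, 24 fell, 1 rose and 5 were not called, with a median change of -1.81. EGR1, an immediate-early zinc finger factor, measured 157, 240.3, 158 and 249 CPM in the control libraries and 2.29, 0.806, 1.75 and 1.43 CPM in the combination libraries. The groups lay far apart (log2 fold change -6.97, SE 0.55, adjusted p = 1.17e-09). ETV4, an ETS factor of the PEA3 group, measured 71.3, 70.0, 56.3 and 74.3 CPM in the control libraries and 1.53, 0.101, 1.04 and 0.808 CPM in the combination libraries, and combination replicate 2 was the lowest library. Its change (log2 fold change -6.23, SE 0.44, adjusted p = 5.23e-11) was followed by that of its relative ETV5, which fell by 4.42 (adjusted p = 2.28e-07). EGR2 retained 3 counts over all 4 combination libraries, a ratio of pooled counts of 128 in favour of control (95% exact interval for counting error 43.4 to 622). MYC, a transcription factor that drives growth, fell less, from 293 ± 34.3 CPM in control to 112 ± 12.8 CPM in the combination (log2 fold change -1.39, SE 0.12, adjusted p = 1.27e-10). The single gene of the list called higher was CIC, a repressor of ETS factor genes that ERK inactivates, which rose by 0.51 (adjusted p = 1.98e-05). IL8, a chemokine gene induced by both AP-1 and NF-kB, measured 4.97, 14.0, 7.05 and 14.7 CPM in the control libraries and 0.163, 0.319, 0.174 and 0.566 CPM in the combination libraries (log2 fold change -5.12, SE 0.39, adjusted p = 4.78e-11), with every combination library far below control.

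The targeted kinases and other components of their pathways showed no common direction as a set, and some members changed strongly. Over all genes 32.2% were called higher and 32.6% lower. Of 30 tested components of PI3 kinase, mTOR and the ERK cascade, 7 rose, 10 fell and 13 were not called, with a median of -0.03. With library totals the balance turned to 12 higher and 7 lower, with a median of 0.10. PIK3CD, a catalytic subunit of PI3 kinase, rose by 1.76 and MAPK3, which encodes ERK1, by 1.10. EIF4EBP1, the translation repressor phosphorylated by mTOR and also an ATF4 target, fell by 3.02. KSR1, a scaffold for RAF and MEK, fell by 1.10.

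Most FOXO target genes rose. Of 29 tested, 18 were higher and 5 lower, beside 32.2% higher and 32.6% lower over all genes, and the median change was 0.77 against 0.01. TRIM63, a ubiquitin ligase of muscle, measured 0.130, 0.149, 0.220 and 0.276 CPM in the control libraries and 1.51, 3.12, 1.63 and 1.52 CPM in the combination libraries (log2 fold change 3.28, SE 0.34, adjusted p = 5.80e-09). KLHL24, an adaptor for ubiquitin ligation, rose from 5.16 ± 1.27 CPM in control to 30.2 ± 6.51 CPM in the combination (log2 fold change 2.54, SE 0.18, adjusted p = 1.93e-11). PIK3IP1, an inhibitor of the PI3 kinase catalytic subunit, rose by 2.38 but from a low level, with 0.0324, 0.186, 0.232 and 0.210 CPM in the control libraries and 0.688, 1.58, 0.564 and 0.727 CPM in the combination libraries, and combination replicate 2 held the highest value. The FOXO list also held falls: GADD45A, a stress-induced growth arrest gene, fell by 2.48, and TXNIP, an inhibitor of thioredoxin and glucose uptake, fell by 1.93 from 461 ± 39.6 CPM in control to 121 ± 11.9 CPM in the combination.

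Among receptor tyrosine kinases and their adaptors, 12 of 28 rose and 10 fell, a call rate above that of all genes but without a common direction. INSR, the insulin receptor, rose by 0.77 from 14.9 ± 1.27 CPM in control to 25.4 ± 3.81 CPM in the combination (adjusted p = 1.32e-06), and ERBB3, a heregulin receptor that recruits PI3 kinase, rose by 0.62 (adjusted p = 1.03e-06). FGFR3 rose by 1.57 and the adaptor GAB1 by 1.16. EGFR fell by 1.26, GRB10, an adaptor that restrains insulin signalling and is stabilised by mTOR, fell by 1.62, and IRS1, the insulin receptor substrate, fell by 0.52. Of 7 EGFR family ligand and shedding genes, 2 rose and 4 fell. HBEGF, a ligand induced by ERK, fell by 2.52 and betacellulin (BTC) by 0.98, while ADAM10, a sheddase, rose by 0.54.

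Genes regulated by ATF4, the transcription factor of the amino acid response, fell almost without exception. Of 28 tested, 26 fell, none rose, and ALDH1L2 and CBS were not called (log2 changes 0.06 and 0.13). The median change was -3.33, the lowest of all 53 lists examined. The promoters of ASNS, CHAC1 and FGF21 are printed because they hold a composite site for ATF4 and C/EBP factors, spelled TGATGNAA (capitals mark it, here read on either strand) among the genes with the largest falls. They are RefSeq sequences of GRCh38.p14 that span the start of the gene. ASNS lies on the minus strand at chr7:97872359-97872658, CHAC1 on the plus strand at chr15:40953221-40953520 and FGF21 on the plus strand at chr19:48755274-48755573.
ASNS: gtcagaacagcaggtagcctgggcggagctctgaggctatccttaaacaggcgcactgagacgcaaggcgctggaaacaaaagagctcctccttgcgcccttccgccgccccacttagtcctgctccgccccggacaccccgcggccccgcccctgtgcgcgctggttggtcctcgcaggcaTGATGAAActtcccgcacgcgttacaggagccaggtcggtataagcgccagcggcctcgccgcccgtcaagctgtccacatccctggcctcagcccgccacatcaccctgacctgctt
CHAC1: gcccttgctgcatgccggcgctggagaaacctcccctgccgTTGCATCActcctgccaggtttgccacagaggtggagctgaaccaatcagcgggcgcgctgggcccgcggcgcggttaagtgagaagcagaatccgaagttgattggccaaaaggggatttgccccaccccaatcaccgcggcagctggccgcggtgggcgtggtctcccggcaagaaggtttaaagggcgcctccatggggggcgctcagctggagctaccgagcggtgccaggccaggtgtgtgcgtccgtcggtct
FGF21: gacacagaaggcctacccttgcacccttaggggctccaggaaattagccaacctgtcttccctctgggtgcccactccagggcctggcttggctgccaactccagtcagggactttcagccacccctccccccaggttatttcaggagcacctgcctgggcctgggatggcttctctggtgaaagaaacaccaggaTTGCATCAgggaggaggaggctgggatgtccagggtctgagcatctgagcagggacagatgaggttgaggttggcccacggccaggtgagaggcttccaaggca
The motif occurred on either strand in 4 of 21 promoters of ATF4 list members that fell (19.0%) and in 5 of 12 promoters of cytosolic aminoacyl-tRNA synthetases that fell (41.7%), against 3.67% of 27305 promoters of the same length. A match to these letters describes the sequence and is no evidence of binding.

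ASNS, asparagine synthetase, measured 1162, 1767, 1269 and 1798 CPM in the control libraries and 30.7, 36.6, 35.8 and 41.1 CPM in the combination libraries (log2 fold change -5.38, SE 0.43, adjusted p = 4.04e-10). Every combination library lay far below every control library. CHAC1, a glutathione-degrading enzyme, measured 197, 247, 204 and 270.5 CPM in the control libraries and 4.59, 8.05, 4.89 and 3.92 CPM in the combination libraries (log2 fold change -5.42, SE 0.54, adjusted p = 2.97e-08). SLC7A11, the cystine transporter, measured 328, 367, 439.8 and 360.2 CPM in the control libraries and 4.66, 6.62, 5.22 and 5.64 CPM in the combination libraries (log2 fold change -6.08, SE 0.56, adjusted p = 9.85e-09), again with no overlap. DDIT4, a stress-induced inhibitor of mTOR complex 1, fell from 668 ± 98.7 CPM in control to 5.27 ± 1.504 CPM in the combination (log2 fold change -6.99, SE 0.80, adjusted p = 2.96e-07). TRIB3, a pseudokinase induced by ATF4, kept 7 counts in all over the combination libraries and fell from 31.1 ± 8.50 CPM in control to 0.0273 ± 0.0136 CPM in the combination. The ratio of pooled counts was 1146 (95% exact interval 556 to 2852). FGF21, a stress hormone, had no counts in any combination library and was at least 232-fold lower there than its control mean of 11.1 CPM, with 3 counts per library as the floor. INHBE, an activin subunit gene, measured 58.8, 58.5, 47.8 and 65.7 CPM in the control libraries and 0.0876, 0.151, 0.0723 and 0.101 CPM in the combination libraries (log2 fold change -9.13, SE 1.15, adjusted p = 1.04e-06). ATF4 itself fell by 1.46, which was less than the median fall of the list. Without combination replicate 2, 26 members again fell. ASNS shares 44.6% of its exonic length with another gene model on the same strand, and 41.2% of DDIT4 lies opposite an antisense gene, so both counts could include reads of a neighbour.

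Amino acid transporters moved in both directions. Of 22 tested, 13 fell and 7 rose, and the median was -1.55. Besides SLC7A11, the neutral amino acid exchanger SLC1A4 fell by 2.92 from 83.0 ± 7.41 CPM in control to 10.98 ± 1.23 CPM in the combination, and the glutamine carrier SLC1A5 fell by 2.53. The glutamate carrier SLC1A3 rose by 0.98 and the neutral amino acid exchanger SLC7A8 by 1.34. The serine and one-carbon enzymes held 14 falls and 6 rises among 26. PSAT1, phosphoserine aminotransferase, measured 1643, 1976, 1830.4 and 1998 CPM in the control libraries and 89.1, 82.1, 109.6 and 103 CPM in the combination libraries (log2 fold change -4.28, SE 0.29, adjusted p = 1.60e-11). MTHFD2, a mitochondrial folate enzyme, fell by 3.47, with 33.2% of its exonic length opposite antisense genes. The glycine cleavage genes GLDC and AMT rose by 3.04 and 2.45, from 4.06 ± 0.748 CPM in control to 33.6 ± 12.5 CPM in the combination for GLDC. AMT was low in control, at 0.499 ± 0.188 CPM, and shares 63.1% of its exonic length with another gene model on the same strand. All 20 cytosolic aminoacyl-tRNA synthetases were called, 19 of them lower, with a median of -1.57. GARS, which charges glycine tRNA, measured 807, 757, 838 and 812 CPM in the control libraries and 129.9, 135, 124 and 115 CPM in the combination libraries (log2 fold change -2.67, SE 0.17, adjusted p = 1.67e-12), and YARS, which charges tyrosine tRNA, fell by 2.74. The exception was QARS, for glutamine, at 0.21, whose call was lost without control replicate 2 (adjusted p = 0.0575), without combination replicate 1 (0.0638) or with no low-count filter (0.0651). The mitochondrial synthetases fell less: 12 of 17 were lower, 1 was higher, and the median was -0.34. MARS2 fell by 1.34 and NARS2 by 0.95, while VARS2 rose by 0.19, a call lost without control replicate 2 (adjusted p = 0.0787), control replicate 3 (0.070) or combination replicate 1 (0.107).

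Ribosome biogenesis genes fell nearly as a block. Of 80 tested members, 77 fell, 2 rose and 1 was not called, with a median change of -1.15, and 76 fell without combination replicate 2. DDX21, an RNA helicase of the nucleolus, measured 705, 639.8, 714 and 663 CPM in the control libraries and 173, 116, 178 and 153 CPM in the combination libraries (log2 fold change -2.13, SE 0.16, adjusted p = 1.98e-11). RRP12, needed for export and maturation of both ribosomal subunits, fell by 2.68. The 2 exceptions were UBTF, a polymerase I factor, at 0.24 and TAF1C at 0.26, and neither call was stable: TAF1C was lost when any of 6 libraries was left out (adjusted p = 0.104 without combination replicate 1) and UBTF when any of 4 was (0.169 without combination replicate 1). The cytosolic ribosomal protein genes themselves changed much less, with 26 of 77 lower, 3 higher and 48 not called, which is below the call rate of all genes. That count of 26 was 17 without control replicate 4 and 15 with library totals. Largest among them were the rise of RPS27 at 0.40 and the falls of RPSA and RPL21 at -0.67 and -0.93. Translation initiation and elongation factors fell in 31 of 42 cases, with EIF2S2, a subunit of the initiator tRNA complex, at -1.59 and EIF1 at -1.81. PDCD4, an inhibitor of the eIF4A helicase degraded downstream of S6 kinase, was the single member that rose, by 0.69. Without combination replicate 2 it rose by 0.45 (adjusted p = 0.0425). The promoters of the ribosome biogenesis genes that fell held the E-box CACGTG in 22 of 66 (33.3%) against 7.44% of all promoters. They held the ETS core CCGGAA on either strand in 38 of 66 (57.6%) against 17.6%. The ETS share was not particular to this list. Among members that fell, it was 7 of 12 for cytosolic aminoacyl-tRNA synthetases (58.3%) and 7 of 16 for ERK-driven factors (43.8%). It was 0 of 10 for ERK feedback genes. The E-box share was not particular to the ribosome biogenesis list either. The E-box stood in 3 of 11 promoters of mitochondrial synthetases that fell (27.3%) and 3 of 12 of cholesterol genes that rose (25%). For DNA replication genes that fell it was 0 of 22.

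In the network of MYC and its partners 5 of 13 genes rose and 3 fell, MYC among the latter. Over all genes 32.2% were higher and 32.6% lower. MXD4, a MAX-binding repressor, measured 9.23, 10.4, 8.39 and 12.2 CPM in the control libraries and 39.5, 73.6, 35.2 and 38.2 CPM in the combination libraries (log2 fold change 2.21, SE 0.19, adjusted p = 5.59e-10), and combination replicate 2 was again highest. MYCN rose by 1.96 from 0.839 ± 0.287 CPM in control to 3.28 ± 0.316 CPM in the combination, and MLX fell by 0.75. Polyamine genes were lower in 9 of 16 and higher in 4. Spermine oxidase (SMOX) fell by 1.89, spermidine synthase (SRM) by 1.47 and ODC1, the rate-limiting decarboxylase, by 1.23, while OAT and ADC rose by 0.78 and 0.95. Purine, pyrimidine and deoxynucleotide genes were lower in 22 of 36 and higher in 4. GART, a trifunctional enzyme of purine synthesis, fell by 1.41 and NME1 by 1.66, while ADSSL1 and CMPK1 rose by 1.15 and 0.60.

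**Figure D2:**
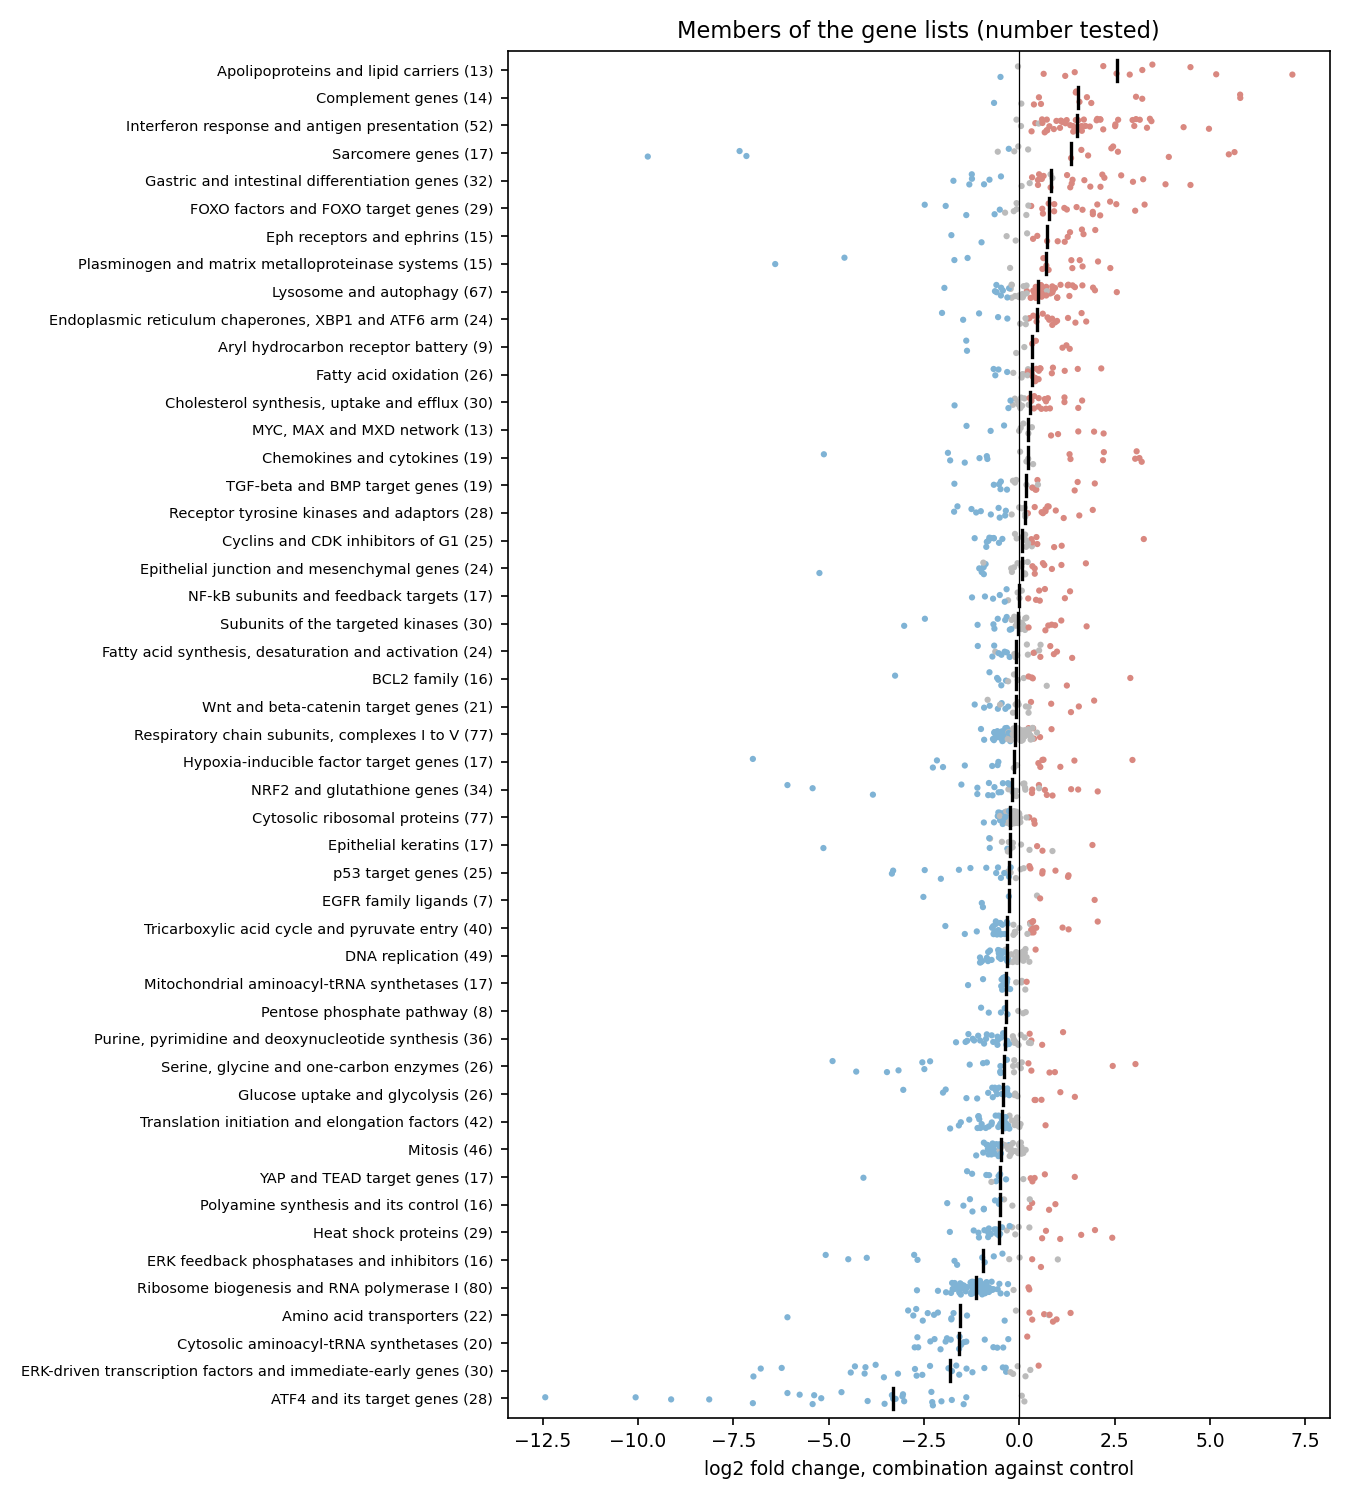
Log2 fold change of the combination against control (horizontal axis) for every tested member (points) of the gene lists with at least 7 tested members, ordered by median (black bars); red points were called higher, blue lower and grey not called. ATF4 targets sit lowest and apolipoproteins highest, and the ribosome biogenesis points lie almost all left of 0.

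Glucose uptake and glycolysis genes were lower in 18 of 26 and higher in 5, with a median of -0.42. HK2, the hexokinase induced by growth signals, measured 118, 103, 112 and 103 CPM in the control libraries and 14.8, 9.83, 14.9 and 13.3 CPM in the combination libraries (log2 fold change -3.04, SE 0.19, adjusted p = 2.58e-12). The glucose transporter SLC2A1 fell by 2.00 and its relative SLC2A12 rose by 1.46. Pentose phosphate enzymes followed with 5 of 8 lower, led by RPIA at -1.004 and TKT at -0.80. Tricarboxylic acid cycle and pyruvate entry genes were lower in 21 of 40 and higher in 11. GOT1, the cytosolic aspartate aminotransferase, fell by 1.94 and the pyruvate dehydrogenase kinase PDK1 by 1.43, while PDK2 rose by 1.29 and IDH2 by 1.13. Respiratory chain subunits were called less often than all genes, with 26 lower and 5 higher of 77. Their median of -0.11 became 0.02 with library totals, and 17 were then called lower and 13 higher.

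Lipid genes changed in different directions by pathway. Cholesterol genes were higher in 16 of 30 and lower in 3, or 13 and 3 without combination replicate 2. SQLE, squalene epoxidase, was up by 1.18 and the reductase TM7SF2 by 1.54. SREBF1, the lipogenic transcription factor, fell by 0.71. Fatty acid synthesis genes were mixed, with 6 higher and 8 lower of 24, beside 32.2% higher and 32.6% lower over all genes. With library totals the counts were 8 higher and 6 lower and the median moved from -0.08 to 0.05. ACACB, the acetyl-CoA carboxylase of mitochondria, rose by 1.38 and the elongase ELOVL7 rose by 0.99, while the elongase ELOVL6 fell by 1.09. Fatty acid oxidation genes were higher in 15 of 26 and lower in 4, led by the regulators PPARGC1A at 1.53 and PPARA at 2.15. ETFA at -0.63 and ETFDH at -0.67 were on the lower side. PPARGC1A was low, at 0.448 ± 0.169 CPM in control and 1.31 ± 0.468 CPM in the combination. With a required minimum change of 1 (glmTreat), 1 member of the list was called higher.

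Lysosome genes rose. Of 67 lysosome and autophagy genes, 42 were higher, 9 lower and 16 not called, and the median was 0.50. Without combination replicate 2, 40 were higher and 10 lower. IDS, a sulfatase that degrades glycosaminoglycans, measured 0.356, 0.279, 0.318 and 0.407 CPM in the control libraries and 2.09, 2.47, 1.39 and 2.14 CPM in the combination libraries (log2 fold change 2.56, SE 0.40, adjusted p = 4.07e-06), and CTSS, a protease of the endolysosome, rose by 1.98. The rises covered hydrolases, membrane proteins and proton pump subunits, among them CTSD at 1.46, GAA at 1.65, LAMP1 at 0.70 and ATP6V0D1 at 0.58. Among autophagy genes the ubiquitin-like MAP1LC3B fell by 1.97 and ATG3, which conjugates it, by 0.64. The transcription factors TFEB, which drives the lysosome programme, and TFE3 were at -0.23 (not called) and -0.60. Of the promoters of lysosome genes that rose, 8 of 30 (26.7%) held the E-box CACGTG, against 7.44% of all promoters. This motif reads the same on both strands.

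Interferon-stimulated and antigen presentation genes rose together. Of 52 tested, 49 rose, none fell and 3 were not called (TAP2, HLA-G and IRF7), with a median of 1.51 against 0.01 for all genes, and 48 rose without combination replicate 2. The promoters of BST2, IFIT1 and ISG15 are printed because they hold the interferon-stimulated element, spelled GAAANNGAA on either strand, a motif chosen after the values were seen. They are RefSeq sequences of GRCh38.p14 of the same span as before, with BST2 on the minus strand at chr19:17405581-17405880, IFIT1 on the plus strand at chr10:89392373-89392672 and ISG15 on the plus strand at chr1:1013247-1013546, and capitals mark the match.
BST2: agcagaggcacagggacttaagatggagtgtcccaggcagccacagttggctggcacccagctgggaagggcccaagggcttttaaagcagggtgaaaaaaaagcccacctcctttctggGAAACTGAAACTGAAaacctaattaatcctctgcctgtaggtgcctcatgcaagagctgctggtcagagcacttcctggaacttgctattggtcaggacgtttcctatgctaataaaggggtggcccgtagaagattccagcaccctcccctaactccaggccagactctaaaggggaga
IFIT1: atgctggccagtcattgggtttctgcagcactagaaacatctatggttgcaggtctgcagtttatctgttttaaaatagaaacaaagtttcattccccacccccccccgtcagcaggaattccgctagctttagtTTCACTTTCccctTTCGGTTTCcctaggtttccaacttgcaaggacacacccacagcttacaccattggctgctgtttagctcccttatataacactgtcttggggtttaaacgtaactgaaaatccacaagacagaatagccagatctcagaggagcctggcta
ISG15: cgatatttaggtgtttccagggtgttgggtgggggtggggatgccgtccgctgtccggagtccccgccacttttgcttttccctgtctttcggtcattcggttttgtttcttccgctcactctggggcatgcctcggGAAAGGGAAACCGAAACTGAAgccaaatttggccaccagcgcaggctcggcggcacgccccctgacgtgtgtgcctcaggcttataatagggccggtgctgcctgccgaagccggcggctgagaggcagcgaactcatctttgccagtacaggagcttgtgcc
Of the 38 promoters found for members of the list that rose, 22 (57.9%) held the element, against 8.29% of all 27305 promoters.

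BST2, a surface protein that tethers enveloped viruses, measured 0.113, 0.168, 0.208 and 0.184 CPM in the control libraries and 6.09, 6.94, 3.96 and 4.65 CPM in the combination libraries (log2 fold change 4.97, SE 0.28, adjusted p = 1.47e-13). OAS2, an antiviral synthetase, rose by 4.31, and this was 5.08 without control replicate 3. MX2, an antiviral GTPase, measured 1.81, 1.06, 1.92 and 1.59 CPM in the control libraries and 18.9, 21.7, 16.3 and 14.2 CPM in the combination libraries (log2 fold change 3.46, SE 0.21, adjusted p = 4.01e-13). B2M, the light chain of class I molecules, rose by 1.24, and PSMB9, a subunit of the immunoproteasome, by 3.42. HLA genes share sequence with near-identical copies and their counts are uncertain for that reason. Complement genes rose in 12 of 14 (10 without combination replicate 2), with CFB, the alternative pathway factor B, at 0.356, 0.279, 0.489 and 0.341 CPM in the control libraries and 18.8, 33.3, 16.0 and 14.7 CPM in the combination libraries (log2 fold change 5.79, SE 0.30, adjusted p = 9.97e-14). CFB shares 45.5% of its exonic length with C2 and a readthrough model. C1QTNF6 rose by 3.22 and CD55, a membrane inhibitor of complement, fell by 0.66. Chemokines split into 8 higher and 7 lower of 19, beside 32.2% higher and 32.6% lower over all genes. The interferon-induced CXCL10 and CXCL11 rose by 3.21 and 3.15, while IL8 fell and TNFSF15 fell by 1.87. NF-kB subunits and feedback genes showed no common direction, with 7 higher and 6 lower of 17. TNFAIP3, a feedback inhibitor of NF-kB signalling, rose by 1.33 and NFKBIZ by 1.19, and the subunit NFKB2 fell by 0.90 and the inhibitor NFKBIB by 1.24. The count of higher genes was 4 without combination replicate 2.

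**Figure D3:**
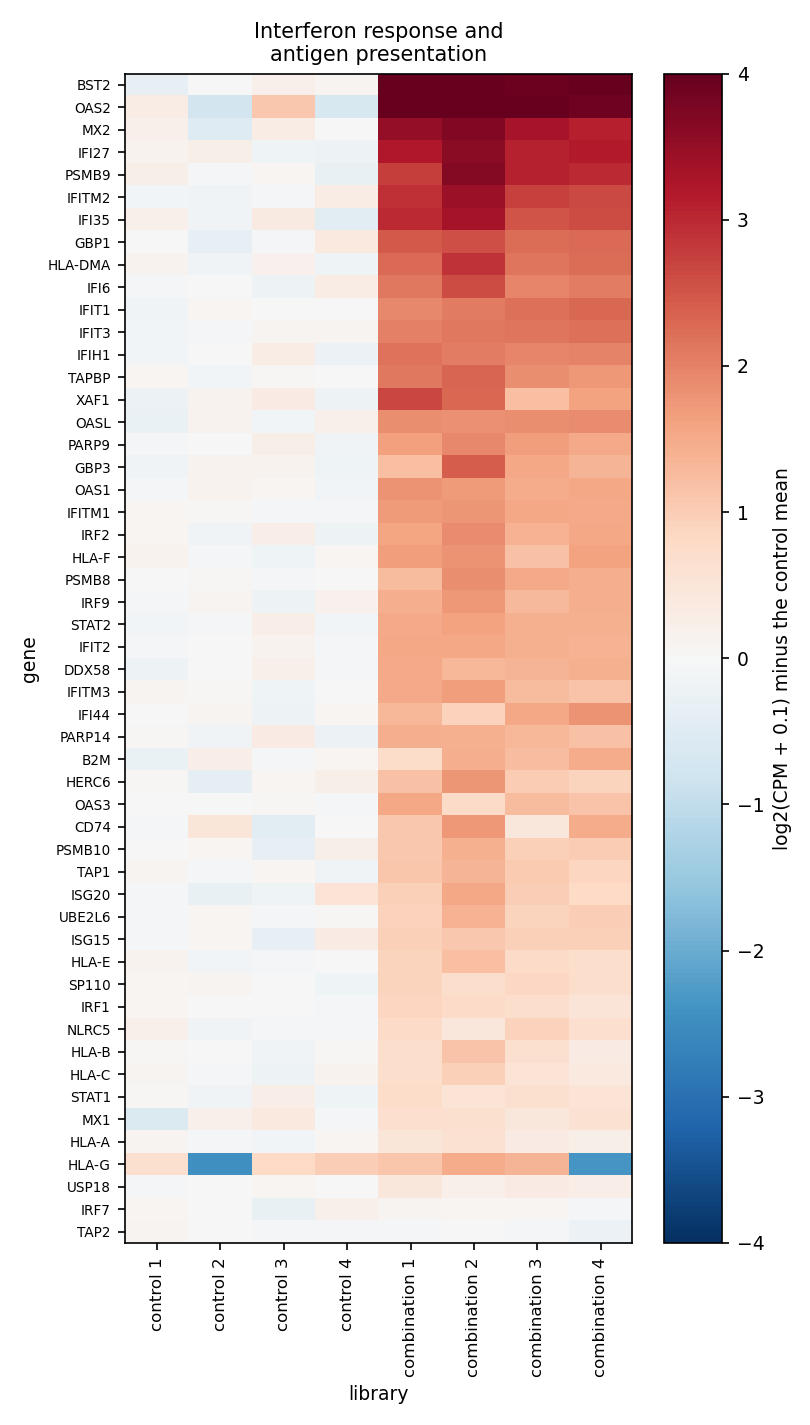
Heat map of log2(CPM + 0.1) minus the mean of the 4 control libraries, with genes of the interferon and antigen presentation list in rows and the 8 libraries in columns. Nearly all of the 52 rows are red in all 4 combination libraries, and TAP2, IRF7 and HLA-G, which were not called, sit among the lowest rows.

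Chaperone genes of different compartments moved apart. Of 24 endoplasmic reticulum chaperone and unfolded protein response genes, 15 rose and 5 fell, with the secretory pathway genes CRELD2 and PDIA4 at 1.75 and 1.63. The stress sensor ERN1 and its target, the factor XBP1, fell by 2.03 and 1.47. Heat shock proteins fell in 18 of 29 and rose in 6. HSPA9 and HSPD1, both mitochondrial chaperones, fell by 1.82 and 1.20, while HSPA1A and HSPA1B, near-identical genes whose reads cannot be separated with certainty, rose by 1.62 and 1.98. NRF2 and glutathione genes held 9 rises and 16 falls of 34, or 13 and 12 with library totals. HMOX1, haem oxygenase, and the exporter ABCC3 rose by 1.54 and 1.36, and SLC7A11 and CHAC1 were the deepest falls. Aryl hydrocarbon receptor genes rose in 5 of 9, with UGT1A6 at 0.43 and ALDH3A1 at 1.23, whereas AHR, the receptor gene itself, fell by 1.39 from 92.0 ± 12.4 CPM in control to 35.1 ± 2.22 CPM in the combination and TIPARP fell by 1.37. Another gene model shares 29.4% of the exonic length of AHR, and other UGT1A genes share 44% of that of UGT1A6. Hypoxia-inducible factor targets divided 7 higher and 8 lower of 17: ADM and NDRG1 rose by 2.97 and 1.44, DDIT4 fell, and VEGFA fell by 2.27. Of p53 targets, 7 of 25 rose, led by ZMAT3 at 1.29 and TP53INP1 at 1.28, and 13 fell. The deepest falls, GDF15 at -3.34 and SESN2 at -3.31, are also on the ATF4 list.

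DNA replication and mitosis genes changed modestly as sets, with medians of -0.32 and -0.48, while CDKN1C rose strongly. CCND1, cyclin D1, measured 978, 859, 877 and 851 CPM in the control libraries and 511, 245, 420 and 407 CPM in the combination libraries (log2 fold change -1.17, SE 0.16, adjusted p = 4.73e-07), with combination replicate 2 lowest. CDKN1C, a CDK inhibitor, measured 0.680, 0.857, 1.22 and 1.09 CPM in the control libraries and 8.03, 13.6, 8.13 and 7.72 CPM in the combination libraries (log2 fold change 3.26, SE 0.30, adjusted p = 1.43e-09), and CDKN2C rose by 1.11. CDKN1A fell by 0.87. Among 49 DNA replication genes, 24 were lower and 1 higher, a call rate under that of all genes, and without combination replicate 2 the counts were 20 and 7. CDC6, the replication licensing factor, fell by 1.03 and PRIM1 by 1.03, while FEN1 rose by 0.43. Of 46 mitosis genes, 23 fell and none rose, with CDC20 at -0.95 and ECT2 at -1.13. Without combination replicate 2, 15 fell and 2 rose. Of 16 BCL2 family genes, 5 rose and 6 fell, beside 32.2% higher and 32.6% lower over all genes. The BCL2 counts were 7 and 6 with library totals, and 3 and 6 without combination replicate 2. BMF, a pro-apoptotic protein, measured 12.9, 9.76, 12.8 and 10.2 CPM in the control libraries and 87.0, 105, 77.3 and 74.3 CPM in the combination libraries (log2 fold change 2.91, SE 0.17, adjusted p = 8.58e-13), and BCL2L11, which encodes BIM, rose by 1.25. PMAIP1, which encodes NOXA, fell by 3.26 and BCL2L12 by 0.78.

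Genes of gastric and intestinal epithelium tended to rise, with 21 of 32 higher and 7 lower and a median of 0.82. APOA1, the main protein of high-density lipoprotein and a product of intestine and liver, measured 0.615, 0.559, 0.293 and 0.748 CPM in the control libraries and 9.72, 20.8, 8.16 and 10.7 CPM in the combination libraries (log2 fold change 4.49, SE 0.32, adjusted p = 1.98e-11). MUC20, a mucin that shares 42.8% of its exonic length with another model, rose by 2.98, while AGR2, a protein disulfide isomerase of mucous cells, fell by 1.73 and the factor KLF5 by 1.31. The apolipoprotein list had the highest median of all lists at 2.55, with 11 of 13 higher. Its summed level rose less, from 199 to 239 CPM in the control libraries to 299 to 380 CPM in the combination libraries. APOL3 rose by 5.16 from 0.0409 ± 0.0281 CPM in control to 1.52 ± 0.247 CPM in the combination, and the lipase LIPG was the member that fell, by 0.49. Wnt targets were mixed, with 5 higher and 7 lower of 21, beside 32.2% higher and 32.6% lower over all genes. With library totals the counts were 8 and 6. DKK1, a secreted Wnt inhibitor, rose by 1.56 from 509 ± 40.4 CPM in control to 1501 ± 178 CPM in the combination, and LGR5 rose by 1.35. SOX9 and ZNRF3 fell by 0.92 and 0.78. Targets of YAP and TEAD fell in 10 of 17, with ANKRD1 at -4.09 and GADD45B at -1.37, and rose in 5, with ARHGEF17 at 1.45 and CRIM1 at 0.67. TGF-beta and BMP targets held 7 rises and 6 falls of 19, near the 32.2% higher and 32.6% lower of all genes. LTBP2 rose by 1.98 and ID2 by 1.53, and SKIL fell by 0.53. TGFBI fell by 0.67, a call lost without control replicate 4 (adjusted p = 0.051).

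**Figure D4:**
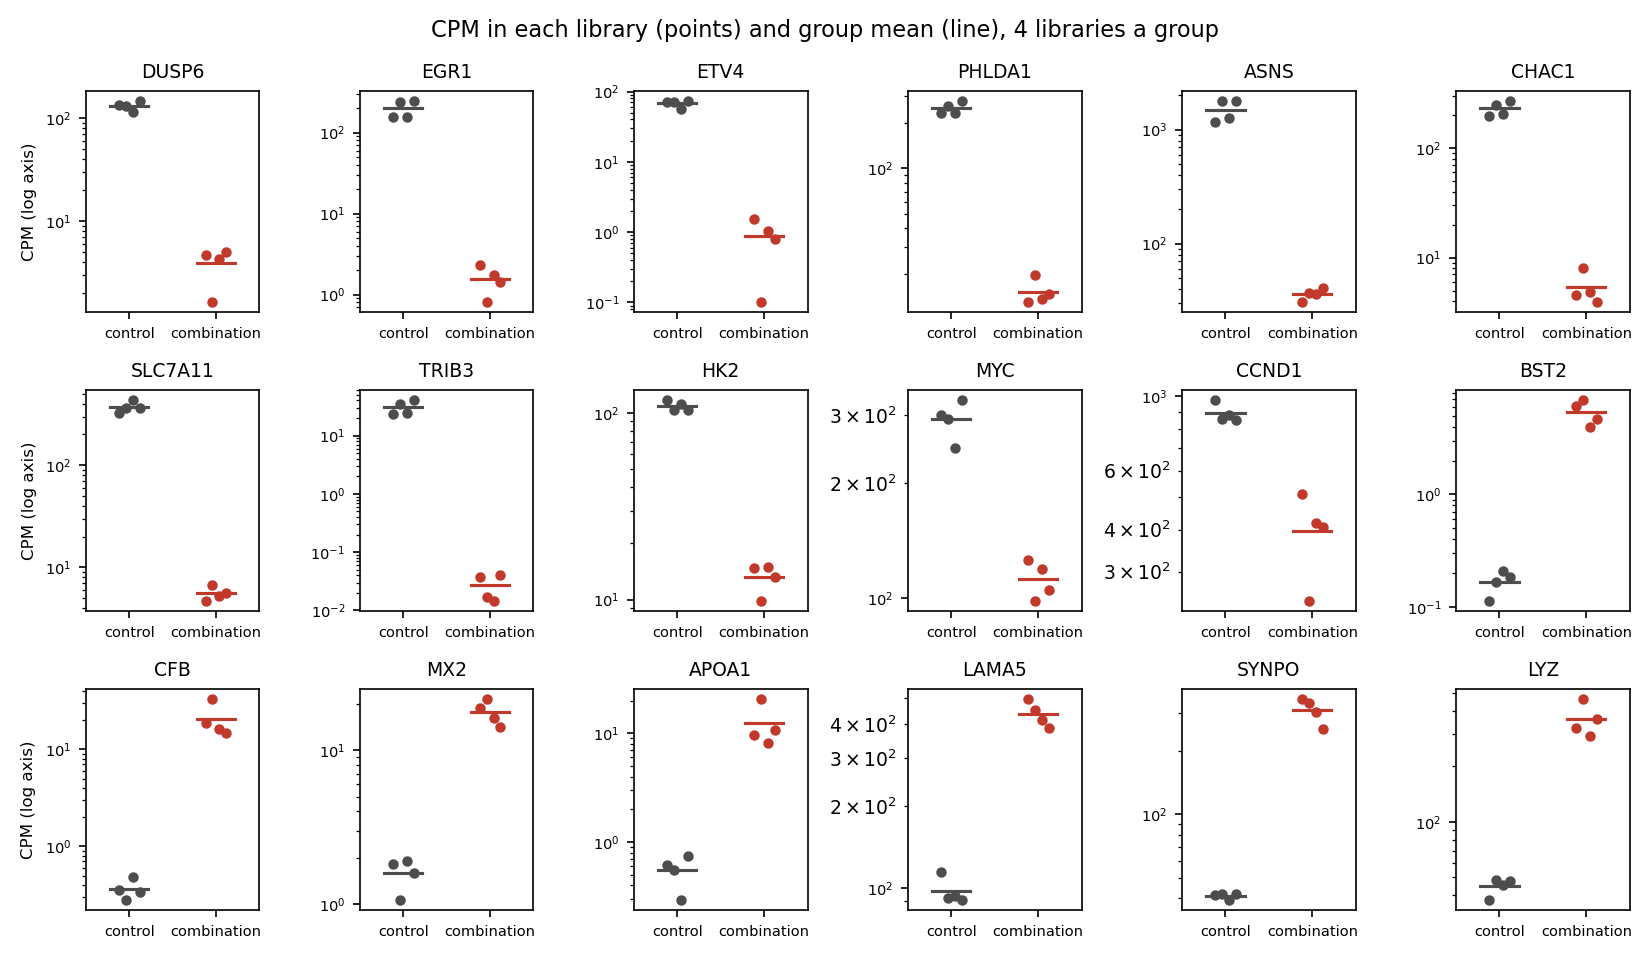
CPM on a log axis for 18 genes in each of the 8 libraries, with control libraries in grey, combination libraries in red and horizontal lines for the group means. In each panel the points of the groups do not overlap. Combination replicate 2 (the second red point from the left) is the lowest library for genes such as DUSP6, EGR1, ETV4, HK2 and CCND1.

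The largest single rises included genes outside the lists. DMBT1, a secreted scavenger receptor of mucosal surfaces, had 2 counts over the 4 control libraries and 14.0 CPM in combination replicate 2 against 3.44 to 5.03 CPM in the other 3 combination libraries. The ratio of pooled counts was 890.2 (95% exact interval 246 to 7357), and its fitted change of 9.47 became 8.81 without replicate 2. C6orf222 measured 0.0810, 0.0931, 0.0977 and 0.105 CPM in the control libraries and 6.26, 12.4, 5.51 and 5.94 CPM in the combination libraries (log2 fold change 6.28, SE 0.54, adjusted p = 5.55e-10). PDZK1IP1, a small membrane protein of epithelia, rose by 5.68, and by 4.89 without combination replicate 2. CYMP, a pseudogene that shares 55.3% of its length with another model, rose by 4.96, and by 4.18 without that library. MPP1, a membrane scaffold, rose by 5.08, NEURL3 by 4.74 and MUM1L1 by 4.77. TNNT2, cardiac troponin T, measured 0.146, 0.205, 0.318 and 0.433 CPM in the control libraries and 10.9, 19.3, 9.52 and 12.001 CPM in the combination libraries (log2 fold change 5.49, SE 0.27, adjusted p = 1.89e-14).

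The largest falls outside the ERK and ATF4 lists were those of MYH4, KLHDC7B, SPRR2D and SERPINB2. MYH4, a myosin heavy chain with close paralogs, measured 48.2, 41.2, 29.4 and 47.1 CPM in the control libraries and 0.0501, 0.0672, 0.0434 and 0.0202 CPM in the combination libraries (log2 fold change -9.74, SE 0.73, adjusted p = 1.49e-10). KLHDC7B retained 1 count in the combination, in replicate 3, against a control mean of 5.04 CPM. The ratio of pooled counts was 1273 (95% exact interval 228 to 50310), and the fit gave -9.74, or -11.28 without that library. SPRR2D, a cornified envelope protein, fell by 7.32, and by 8.50 without combination replicate 2. SERPINB2, an inhibitor of plasminogen activators, measured 10.46, 9.82, 7.26 and 15.9 CPM in the control libraries and 0.138, 0.118, 0.174 and 0.0606 CPM in the combination libraries (log2 fold change -6.40, SE 0.32, adjusted p = 1.69e-14). Among abundant genes the rises were LYZ, lysozyme, at 37.7, 48.4, 45.5 and 48.1 CPM in the control libraries and 324, 466, 292 and 361 CPM in the combination libraries (log2 fold change 3.01, SE 0.17, adjusted p = 2.70e-13), and SYNPO, an actin-associated protein, at 41.7, 42.0, 39.3 and 42.1 CPM in the control libraries and 352, 336, 304 and 254 CPM in the combination libraries (log2 fold change 2.92, SE 0.13, adjusted p = 3.26e-15). The receptor-like UNC5CL, the laminin chain LAMA5 and the phospholipase PLA2G2A rose by 3.59, 2.16 and 2.66. In none of these, picked for the size of their change, did the control and combination libraries overlap. The same held for 7738 of all 9039 called genes. Other gene models share 19.9% of the exonic length of SERPINB2 and 23.8% of UNC5CL on the same strand, and 34% of LYZ lies opposite an antisense gene.

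The combination was set beside each single agent to place its response, with the difference tested directly and with each agent at 50% of its single dose in the combination, so the doses differ. Against PI103, 5391 genes (38.7%) differed, 2616 higher (18.8%) and 2775 lower (19.9%). Against PD0325901, 2521 genes (18.1%) differed, 1124 higher (8.06%) and 1397 lower (10.0%). Scaling by library totals moved the split to 3061 higher and 2135 lower against PI103 and to 1306 higher and 1010 lower against PD0325901. Without PD0325901 replicate 3, 1385 genes differed from PD0325901, and 1531 did without combination replicate 1. Of the 4486 genes higher than control, 1804 differed from neither single agent and 285 exceeded both. Of the 4553 lower genes, 1880 differed from neither and 319 were lower than both. All of these comparisons share control or combination libraries.

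Of 30 ERK-driven transcription factors and immediate-early genes, 18 were lower than with PI103 and 2 higher, while 1 was lower and 7 were higher than with PD0325901. DUSP6 changed against control by -1.43 with PI103, -5.18 with PD0325901 and -5.08 with the combination, and the combination differed from PD0325901 by 0.11 (SE 0.30, adjusted p = 0.838). EGR1 showed -3.90, -6.94 and -6.97, with a difference from PI103 of -3.07 (SE 0.50, adjusted p = 7.27e-05). Of 28 ATF4 targets, 25 were lower than with PD0325901, while 1 was lower and 3 were higher than with PI103. ASNS changed by -5.74, -2.09 and -5.38, and the combination differed from PD0325901 by -3.29 (SE 0.39, adjusted p = 7.08e-06). Ribosome biogenesis genes were lower than with PI103 in 67 of 80 and lower than with PD0325901 in 29, and the median against control was -0.63 with PI103 and -0.86 with PD0325901. Interferon and antigen presentation genes were higher than with PI103 in 43 of 52 and higher than with PD0325901 in 22, from medians of 0.65 and 1.14. BST2 rose by 1.498, 3.87 and 4.97, a difference of 1.10 (SE 0.21, adjusted p = 9.72e-04) from PD0325901. SYNPO rose by 1.51, 1.54 and 2.92, a difference of 1.41 (SE 0.12, adjusted p = 2.66e-09) from PI103. Mitosis genes were lower than with PI103 in 45 of 46 and none differed from PD0325901. Their medians against control were 0.41 with PI103 and -0.47 with PD0325901. Combination replicate 2 held the lowest summed level of mitosis genes, 3081 CPM against 6475, 7298 and 6881 CPM. The count against PI103 was not made without that library. Cholesterol genes were lower than with PD0325901 in 17 of 30, whose median against control was 0.73. A gene that missed the threshold against a single agent is not shown to respond alike.

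**Figure D5:**
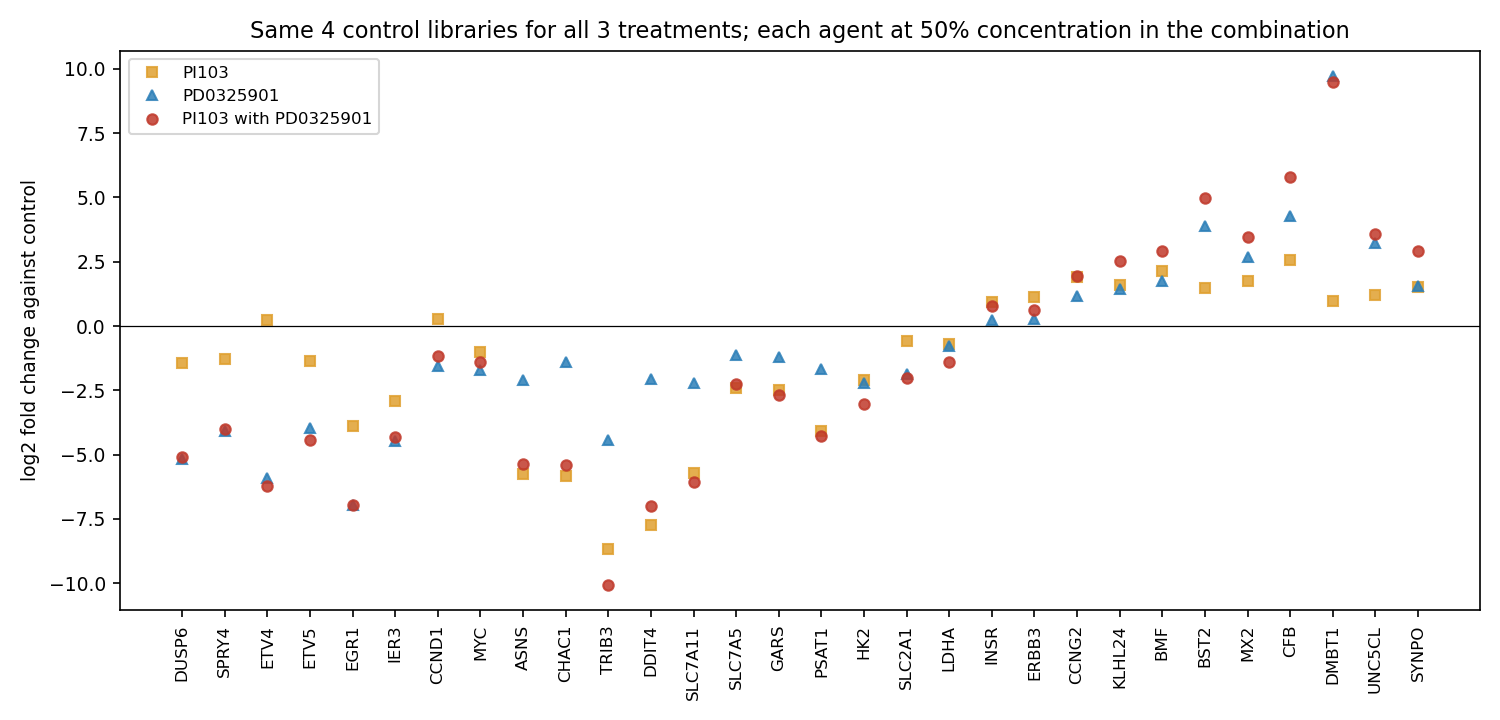
Log2 fold change against the same 4 control libraries (vertical axis) for 30 genes with PI103 (squares), PD0325901 (triangles) and the combination (circles). The circles lie near the triangles for DUSP6 and EGR1, near the squares for ASNS and DDIT4, and above both for BST2 and SYNPO.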

How the data were processed

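RNA sequencing libraries of AGS cells were made with a stranded mRNA kit from 0.8 µg of total RNA, per the labels' protocols. The authors deposited whole-number read counts per gene symbol for 24 libraries, and genome build GRCh38 is named per the submitters' processing notes. The aligner, counting program and annotation are not given in the sources used here, nor whether counting used strand. The 5 closing tally rows entered neither library sizes nor tests. In the 8 libraries these tallies put 5.20% to 7.82% of reads outside annotated features, 1.58% to 1.87% in the ambiguous class and 4.86% to 5.86% in the class aligned more than once.

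Of 23368 genes, 3199 had no counts, and edgeR's filterByExpr kept 13947 that held 99.989% of counts. A model with TMM scaling was fitted in edgeR 4.0.16 under R 4.3.3 (quasi-likelihood F test, robust, two-sided) over all 24 libraries, with 1 coefficient per group. Adjusted p-values are Benjamini-Hochberg over 13947 genes, and calls are under 0.05. The common biological coefficient of variation was 0.131. SE was obtained from the log2 fold change and the root of F. CPM uses TMM-scaled library sizes. The script was tested on simulated data. Replicates differed by far more than sampling noise, with chi-square per degree of freedom of 15.0 to 149 over 12 pairs. Counting intervals are 95% exact intervals and cover counting error only; a count of 0 was set against a floor of 3 counts per library.

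The members and 53 gene lists (1521 distinct symbols, 1340 tested) were chosen with earlier results of these data known. Named genes are the 10 largest rises and falls with at least 5 CPM in the higher group and the same sign in all 4 batches, the 5 largest among genes of at least 200 CPM, the 2 largest rises and falls of each list with at least 1 CPM, and 16 readout genes. A gene that this rule picks is not reported here. Other genes named were picked within their lists after their values were seen. Promoters are RefSeq sequences of GRCh38.p14, and overlaps between gene models come from GENCODE 29. The labels call the replicate number a batch. The fit had no batch term, and a replicate block was run as an alternative. Deviations of same-numbered libraries from group means correlated by 0.12 on average over 60 pairs, and by -0.02 to 0.22 for control with combination. Alternatives were other scaling, DESeq2 1.42.0, other filters, the replicate block, only the groups compared, a minimum change of 1 (glmTreat) and each replicate left out.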

Additional observations from a re-analysis of the deposited data

Results flagged for a closer look

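Among 412 groups of 4 libraries (206 named genes in control and in the combination), 36 held a library that lay apart from the other 3 by Dixon's test, where chance gives about 1 in 20. Combination replicate 2 was the library in 19 of them.

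That replicate was the highest for several genes that rose. It held 14.0 CPM of DMBT1 (others 3.44 to 5.03), 46.7 CPM of PDZK1IP1 (11.2 to 12.7), 32.2 CPM of CYMP (7.31 to 9.64), 12.4 CPM of C6orf222 (5.51 to 6.26) and 13.7 CPM of NEURL3 (5.72 to 7.04). It was also highest for PLA2G2A at 1153 CPM (614 to 697), MXD4 at 73.6 (35.2 to 39.5), PDCD4 at 57.5 (32.8 to 33.8), PIK3IP1 at 1.58 (0.564 to 0.727), CDKN1C at 13.6 (7.72 to 8.13) and TRIM63 at 3.12 (1.51 to 1.64). Smaller gaps were seen for TM7SF2 at 102 CPM (68.1 to 69.2), UGT1A6 at 117 (85.05 to 88.1) and KRT15 at 6.84 (4.79 to 4.99). Among genes that fell against control, it was highest for ERN1 at 3.06 CPM (2.61 to 2.66) and DDIT4 at 7.51 (4.34 to 4.79). It was lowest for CDC6 at 85.5 CPM (128 to 133), RPIA at 13.4 (22.9 to 23.9) and SLC1A3 at 126 (147 to 149.7).

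Of the other combination libraries, replicate 1 was highest for CRIM1 at 309 CPM (249 to 254). Replicate 3 was lowest for AMT at 1.97 CPM (2.93 to 3.07) and held the single KLHDC7B count, 0.0145 CPM against 0 in the others.

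In control, replicate 1 stood apart for LAMA5 at 115 CPM (90.4 to 93.8), ITGB4 at 110.2 (84.9 to 88.7), PLAUR at 11.6 (8.20 to 8.49), TIPARP at 83.1 (75.6 to 76.5), ITGA5 at 75.1 (85.3 to 86.2), SLC1A4 at 72.0 (85.8 to 88.0) and PPARGC1A at 0.194 (0.521 to 0.550). Control replicate 3 stood apart for ID2 at 126 CPM (82.0 to 84.7), KLHL24 at 7.05 (4.26 to 4.66), MMP19 at 0.562 (0.276 to 0.324), ADSSL1 at 0.745 (1.11 to 1.15), SYNPO at 39.3 (41.7 to 42.1) and UNC5CL at 31.8 (30.1 to 30.4). Control replicate 4 was lowest for CD68 at 0.617 CPM (0.875 to 0.907).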

How the results depend on the processing

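Against control, between 8519 and 9604 genes were called under every alternative but a required minimum change of 1, where glmTreat called 1541. The replicate block gave 9604 and changed none of the 206 named calls. Leaving out 1 library gave 8519 to 8820. Against PI103 the minimum change left 379 genes, the replicate block gave 6137, and leaving out 1 library gave 3927 (without combination replicate 2) to 5308. The comparison with PD0325901 depended most on the setting: 22 genes with the minimum change, 1222 with only the groups compared, 3524 with the replicate block, and 1385 (without PD0325901 replicate 3) to 3113 (without PD0325901 replicate 2) with 1 library left out.

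No named gene changed direction under any alternative. The minimum change of 1 ended 79 of the 206 calls, and each other alternative ended 0 to 5. The calls of DHCR7 and TPM1 ended with library totals (adjusted p = 0.149 and 0.178). Low counts limit the largest fold changes: FGF21, TRIB3, KLHDC7B, EGR2 and DMBT1 rest on 0 to 7 counts in their lower group, and their size is uncertain. Changes under 0.5 were called in 2891 genes at a depth of at least 48.2 M reads. The part of depth in these calls was not tested.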

Other observations

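Genes of cell shape and surface also changed in the combination. Ephrins and their receptors rose in 10 of 15 tested and fell in 2: EPHA10 and EFNA2 rose by 1.99 and 1.68, and EPHA2, a receptor induced by ERK, and EPHA4 fell by 1.78 and 0.99. Plasminogen and matrix metalloproteinase genes rose in 10 of 15 and fell in 4, with MMP19 and the urokinase receptor PLAUR up by 2.06 and 1.66 and the activator PLAT down by 1.36. Sarcomere genes were higher in 9 of 17 and lower in 4. TTN, the giant titin, rose by 3.92 from 0.142 ± 0.0342 CPM in control to 2.15 ± 0.462 CPM in the combination, beside TNNT2 and against the fall of MYH4, and TPM1 fell by 0.28.

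Epithelial keratins were called less often than all genes, with 3 higher and 4 lower of 17. KRT16, a keratin of activated epithelium, measured 1.77, 1.43, 1.04 and 1.42 CPM in the control libraries and 0.0751, 0.0504, 0.0145 and 0 CPM in the combination libraries (log2 fold change -5.14, SE 0.51, adjusted p = 2.58e-09), and fell by 5.86 without combination replicate 1. KRT81 fell by 0.79, while KRT15 and KRT14 changed by 0.61 and 1.92. Among junction and mesenchymal genes, 8 of 24 rose and 6 fell, beside 32.2% higher and 32.6% lower over all genes. The integrin ITGB4 and the claudin CLDN2 changed by 0.85 and -5.24, vimentin (VIM) by 1.10 and the integrin ITGA5 by -1.05. The epithelial markers CDH1 and KRT19 changed by 0.62 and 0.47. Of 3 leukocyte markers tested, 1 rose and 1 fell. The collagen gene COL1A1 changed by 0.58 from 14.8 ± 1.46 CPM in control to 22.1 ± 1.70 CPM in the combination.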
